A study of Mus musculus with 14 samples.

Results

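The genes for heterotrimeric G protein subunits and for the proteins that act directly on them or on cyclic AMP were examined in mouse hippocampus after intermittent hypoxia (IH) or sustained hypoxia (SH). Members were chosen by gene symbol, as G protein alpha, beta and gamma subunits (Gna, Gnb, Gng), regulators of G protein signaling (Rgs), adenylyl cyclases (Adcy), cyclic nucleotide phosphodiesterases (Pde), G protein-coupled receptor kinases (Grk), beta-arrestins (Arrb) and G protein signaling modulators (Gpsm). The rule found 45 of the 7756 genes in the count table, none of them an arrestin, and all 45 passed the filter on low counts, a mean of 40 or more within each group. They comprised 3 alpha, 2 beta and 6 gamma subunits, 12 Rgs genes, 7 adenylyl cyclases, 10 genes with a Pde name, 4 receptor kinases and Gpsm1. Other genes of these families were not analysed here.

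Hippocampal RNA of male C57BL/6J wild-type mice, 8 weeks old, was sequenced after 28 days in 1 of 3 atmospheres. The 4 control mice breathed 21% oxygen throughout, the 5 IH mice were cycled every 2 min from 10% to 21% oxygen and back, 8 h per day, and the 5 SH mice breathed 10% oxygen over the same daily hours and 21% for the rest of the day. Both exposed groups had low oxygen, and only the IH mice had rapid cycling of oxygen within a session. The IH mice spent part of each cycle at 21% oxygen, so they had less time at 10% than the SH mice. The gas delivery systems of IH and SH also differed. Cycling, time at 10% oxygen and apparatus cannot be told apart in IH vs. SH. The control libraries came from a preliminary experiment and the others from the main one, so exposure and experiment cannot be told apart in either comparison with control, and both comparisons share the same 4 control libraries. Mice of the main experiment had been through behavioral tests before tissue was taken. Whether the control mice of the preliminary experiment had the same tests is not stated. Whole hippocampus was sequenced, so fewer cells of a type and less RNA per cell cannot be told apart.

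A heterotrimeric G protein consists of an alpha subunit, which binds guanine nucleotides, and a beta-gamma pair that holds it in the inactive state at the membrane. An activated receptor makes alpha release GDP and take up GTP, after which alpha and beta-gamma each act on their own effectors: Gs-type alpha stimulates adenylyl cyclase, Gi-type alpha inhibits it, and Gq-type alpha activates phospholipase C beta. RGS proteins speed up the GTP hydrolysis that ends the signal, phosphodiesterases break down cyclic nucleotides, and receptor kinases switch off the receptor. In hippocampal neurons these pathways carry the signals of monoamine, acetylcholine, adenosine and metabotropic glutamate receptors, and cyclic AMP is long known to take part in lasting synaptic strengthening.

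Total counts per library ranged from 8352355 to 11777101 in control, 7568082 to 10578076 in IH and 7203659 to 10480839 in SH. Neuronal marker genes summed to between 119547 and 153414 normalized counts in every library. Choroid plexus markers, 12 of 12 in the table, had control sums of 3968 to 122963, IH sums of 5016 to 74293 and SH sums of 4527 to 90808. They varied within each group, and none of the 12 was called in any comparison by edgeR or by DESeq2, nor had an unadjusted p under 0.05. Of 7 microglial markers, 3 were in the table, none of them at 0 in any library: their sum was 3204 to 3453 in control, 3019 to 3552 in IH and 2442 to 3132 in SH, and 2 of the 3 (Csf1r and C1qa) were called lower in SH. Of 5 erythrocyte genes, all in the table and none at 0, 4 were tested and all 4 were called lower in IH than in control. Their sum was 2926 to 3189 in control, 1649 to 2304 in IH and 2203 to 3081 in SH. In IH vs. SH, edgeR called no microglial or erythrocyte marker, while DESeq2 called 1 of each. Of the 3 microglial markers, 1 had an unadjusted p under 0.05 by edgeR there, C1qa, which was 0.48 higher in IH (adjusted p = 0.0583). Of 7 tested neuronal markers, 1 was called in IH and 2 in SH. Prox1, a transcription factor of dentate granule neurons, was higher in IH than in control by 0.66 on the log2 scale (adjusted p = 0.0169), and in SH by 0.81 (adjusted p = 0.00387). Slc17a7, the vesicular glutamate transporter of excitatory neurons, was −0.26 in SH (adjusted p = 0.0215). In SH, 1 of 5 interneuron markers was called, Gad1, at 0.30 (adjusted p = 0.00728), and the other 4 lay between −0.38 and 0.31. Of 8 endothelial and mural cell markers 1 was called in SH, Flt1, at 0.22 (adjusted p = 0.0245), and the other 7 lay between −0.27 and 0.25. The part of these cell markers in the results for the G protein genes was not tested, except that choroid plexus level was entered as a covariate: 5, 12 and 2 members then passed in IH vs. control, SH vs. control and IH vs. SH, against 5, 13 and 2 without it.

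Each gene was tested by edgeR's quasi-likelihood test in 1 fit of all 14 libraries, and was called where the p-value adjusted by the Benjamini-Hochberg method over the 7338 tested genes was under 0.05. The authors had already selected the genes in the count table by difference from control, which this adjustment does not take into account. A normalized count is the count divided by the library's TMM-scaled size relative to the mean library, and fold changes are log2 values ± standard error (SE). In IH vs. control, 5 of the 45 members were called (11.1%), against 10.9% of all tested genes. Of these, 3 were lower (6.67% of members, 4.85% of all genes) and 2 were higher (4.44% of members, 6.08% of all genes), so the family's share was near the background. In SH vs. control, 13 of 45 were called (28.9%, against 20.6% of all genes), 8 lower (17.8%, against 10.5%) and 5 higher (11.1%, against 10.2%). In IH vs. SH, 2 were called, both higher in IH (4.44%, against 2.37% of all genes in either direction and 1.47% higher), and none was lower by edgeR or by DESeq2 (0.899% of all genes were lower). The numbers with an unadjusted p under 0.05 were 15, 16 and 10. The members' median log2 fold change was −0.02, 0.02 and 0.00 in the 3 comparisons, and that of all tested genes was −0.02, 0.00 and 0.00. In all, edgeR called 14 members in at least 1 comparison and 31 in none, and DESeq2 called 2 of those 31, Gnai3 and Rgs7bp, both higher in SH than in control.

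**Figure D1:**
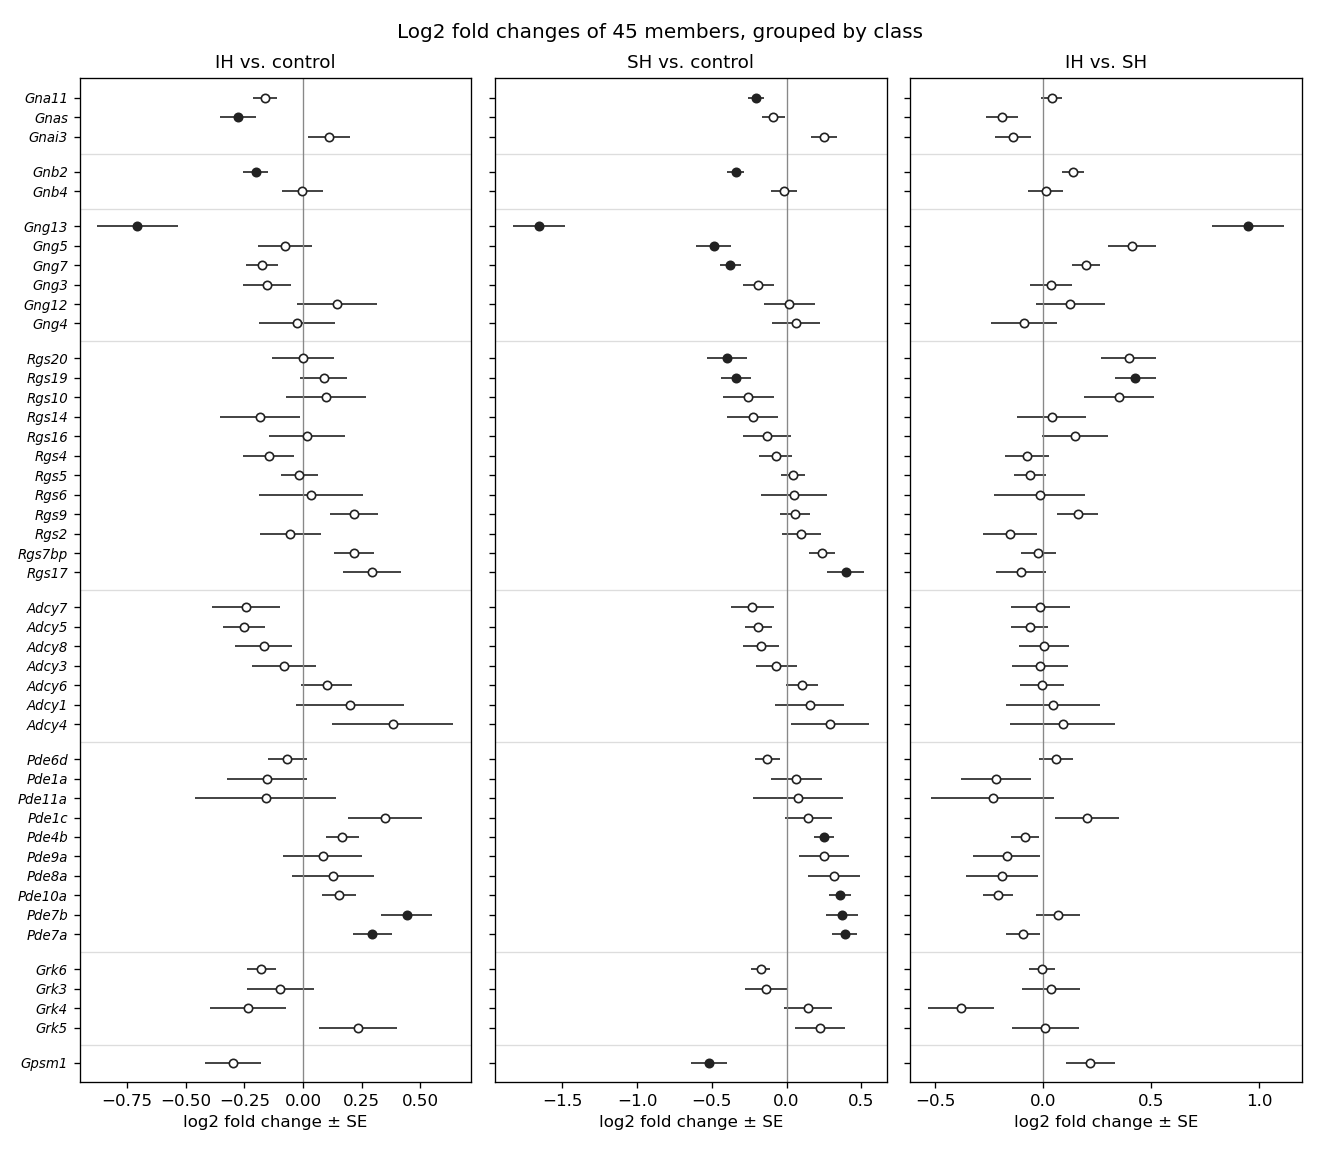
Log2 fold change of the 45 members in IH vs. control, SH vs. control and IH vs. SH, 1 row per gene and grouped by class from alpha subunits at the top to Gpsm1 at the bottom. Points are edgeR estimates, bars are ± SE, filled points have an adjusted p under 0.05, and the horizontal scales differ between panels. Gng13 lies farthest from 0 in each panel, at −0.71, −1.66 and 0.95.

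The gamma subunits held the member that moved most. Gng13 encodes gamma 13, a subunit best known from taste receptor cells and retinal bipolar cells, where it works in specialised sensory G proteins. Its gene lies at GRCm39 chr17:25936145-25938380, plus strand, with a reference transcript of 719 bases and 58.7% GC. Its normalized count was 392, 458, 374 and 356 in the control libraries, 263, 272, 287, 217 and 172 in IH and 126, 157, 141, 83.7 and 118 in SH. The 3 groups did not overlap: every IH library lay below every control library, and every SH library lay below every IH library. Group means ± SD were 395 ± 44.4 for the 4 control, 242 ± 47.4 for the 5 IH and 125 ± 27.4 for the 5 SH libraries, so the IH mean was 0.614 times and the SH mean 0.317 times the control mean. Gng13 was the only member called in all 3 comparisons, with a log2 fold change of −0.71 ± 0.17 in IH (adjusted p = 0.0169) and −1.66 ± 0.17 in SH (adjusted p = 7.95e-05) against control. It was 0.95 ± 0.17 higher in IH than in SH (adjusted p = 0.0103), the comparison in which both groups come from the same experiment. Without control 2, its highest library, the IH difference from control was −0.63 (adjusted p = 0.0668), and with GC content and length trends removed it was −0.49 (adjusted p = 0.108). The SH difference and the IH vs. SH difference were called under all 23 alternatives, between −1.75 and −1.41 and between 0.84 and 1.05.

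RefSeq promoter windows were matched by symbol for 37 of the 45 members, 63 windows in all, each 250 bases before to 50 bases after a transcription start. The 2 printed here are those at the first exon of Gng13 and Gng7, the pair of gamma genes with the smallest adjusted p in SH vs. control, with GC boxes (GGGCGG on either strand, the letters bound by Sp1-type factors) in capitals. Each is written 5′ to 3′ on the gene's own strand.
Gng13, GRCm39 chr17:25935896-25936195, plus strand: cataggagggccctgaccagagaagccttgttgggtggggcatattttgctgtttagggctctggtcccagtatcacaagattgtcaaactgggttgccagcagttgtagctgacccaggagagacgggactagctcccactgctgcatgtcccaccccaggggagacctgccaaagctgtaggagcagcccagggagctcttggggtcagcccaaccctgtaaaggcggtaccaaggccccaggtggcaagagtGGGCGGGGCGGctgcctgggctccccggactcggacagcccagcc
Gng7, GRCm39 chr10:80850710-80851009, minus strand: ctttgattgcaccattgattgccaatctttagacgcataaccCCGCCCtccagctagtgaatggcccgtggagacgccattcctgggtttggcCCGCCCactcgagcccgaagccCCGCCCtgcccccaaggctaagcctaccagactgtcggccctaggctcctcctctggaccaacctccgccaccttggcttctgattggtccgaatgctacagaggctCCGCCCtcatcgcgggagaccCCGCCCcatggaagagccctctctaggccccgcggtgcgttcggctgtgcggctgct
The Gng13 window was 62.0% GC and held 2 GC boxes, which share bases, and a further Gng13 window at chr17:25936252-25936551 was 72.0% GC with 3. The Gng7 window was 63.7% GC and held 5. A GC box stood in 30 of the members' 63 windows (47.6%) and in 35.7% of the 32851 windows of all genes. The cyclic AMP response element TGACGTCA was in none of the 63 (1.79% of all windows), and its half-site TGACG, which is part of it, was in 15 (23.8%, against 20.8%). The core of the hypoxia response element, ACGTG, was in 15 (23.8%, against 19.6%). Neither printed window holds TGACG or ACGTG on either strand, nor does the other Gng13 window. The other Gng7 window, at chr10:80837150-80837449, holds TGACG at 1 place, and ACGTG at 1 place that reads the same on both strands (CACGTG), and no GC box. These matches describe letters in the reference and say nothing of binding.

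Gng13 can be set beside the other gamma genes by its share of their counts. Gng13 amounted to 3.69 to 4.67% of the summed normalized counts of the other 5 gamma genes in control, 1.96 to 3.06% in IH and 1.08 to 1.89% in SH. No library of 1 group reached the range of another. Per kilobase of transcript, mean normalized counts of Gng13 were 549 in control, 337 in IH and 174 in SH. On that scale it ranked 3, 4 and 5 among the 6 gamma genes and 14, 16 and 29 among the 45 members. Gng7 held rank 1 of the gamma genes in all 3 groups (2319, 2052 and 1788 per kilobase), followed by Gng3 (1569, 1411 and 1376). These per-kilobase levels are a description and were not tested.

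Gng7 encodes the gamma subunit known from striatal neurons, where it is needed for the G protein that couples dopamine and adenosine receptors to adenylyl cyclase (GRCm39 chr10:80784447-80850779, minus strand). Its normalized count was 4591, 4685, 4757 and 4831 in the control libraries, 3849, 4216, 4313, 4251 and 4244 in IH and 3494, 3231, 3422, 4186 and 3850.4 in SH. All control libraries lay above all IH and all SH libraries, while SH 4 and SH 5 lay within the IH range. Gng7 fell in SH (log2 fold change −0.38 ± 0.07, adjusted p = 0.0023), and the IH value was −0.18 ± 0.07 (adjusted p = 0.0989). The IH vs. SH difference of 0.20 ± 0.06 had an adjusted p of 0.126 with all libraries and 0.0475 without SH 4. Gng5 encodes a widely expressed gamma subunit (GRCm39 chr3:146205461-146213356, plus strand). Its normalized count was 287, 318, 298 and 319.9 in the control libraries, 318, 264, 298, 266 and 304 in IH and 272, 188, 231, 206 and 191 in SH. Every SH library lay below every control library, and IH overlapped both. Gng5 fell in SH (log2 fold change −0.49 ± 0.11, adjusted p = 0.0089), with −0.08 ± 0.11 in IH (adjusted p = 0.68), while the direct difference of IH from SH was 0.41 ± 0.11 (adjusted p = 0.0611 by edgeR, 0.0289 by DESeq2, and 0.0167 by edgeR without SH 1). Both genes were called in SH under all 23 alternatives.

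The other 3 gamma genes were called in no comparison by edgeR or DESeq2. Gng3, a gamma subunit of mature neurons, had log2 values of −0.15 ± 0.10 in IH and −0.19 ± 0.10 in SH, and the adjusted p-values were 0.321 and 0.198. Gng12 was 1379 to 1445 in control, 1523 to 1607 in IH, and 1748, 1560, 1610, 713 and 1470 in SH, so that SH 4 stood apart below every other library. Its log2 values were 0.14 ± 0.17 in IH and 0.02 ± 0.17 in SH. Without SH 4 the SH value was 0.19 (adjusted p = 0.0537). Gng4 was 473 to 519 in 3 control libraries and 755 in control 1, with log2 values of −0.03 ± 0.16 in IH and 0.06 ± 0.16 in SH. The directions of Gng12 and Gng4 against control turned under some alternatives and are not given as a change.

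**Figure D2:**
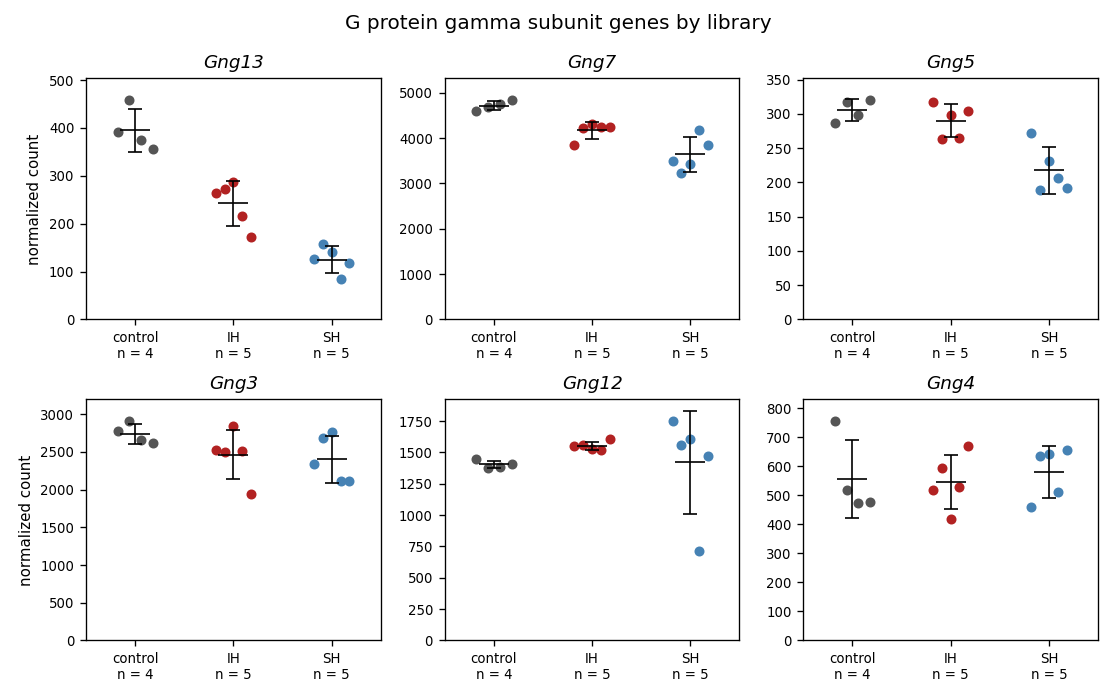
Normalized counts of the 6 gamma subunit genes in each library of control (n = 4), IH (n = 5) and SH (n = 5), on linear axes that start at 0. Dots are libraries, the horizontal mark is the group mean and the bar is ± SD. The 3 groups of Gng13 do not overlap, while the lone low SH dot of Gng12 is SH 4 at 713.

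Several of these genes share exon bases with a gene on the opposite strand. In the GENCODE annotation of GRCm39, 448 of the 1023 exon bases of Gng13 (43.8%) lie within exons of Chtf18, a DNA replication clamp-loader gene on the minus strand (chr17:25937724-25946448), which was not analysed here. For Gng5, 85.6% of exon bases lie within Rpf1, a ribosome biogenesis gene, whose own log2 values were 0.20 in IH (adjusted p = 0.337) and 0.16 in SH (adjusted p = 0.447), opposite in sign to Gng5. Gnb4 shares 34.0% with Mfn1, Gng3 24.2% with Bscl2, Adcy3 19.0% with Cenpo and Rgs19 15.8% with Tcea2. The library kit keeps the strand, but whether counting used it is not given in the sources used here. Where it did not, reads of the shared bases cannot be told apart.

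Of the beta subunits, Gnb2 was called and Gnb4 was not. Gnb2 encodes a beta subunit found in nearly all tissues (GRCm39 chr5:137525542-137551860, minus strand). Its normalized count was 5938, 5829.8, 5421 and 5534 in the control libraries, 4739, 4888, 5198, 4942 and 4918 in IH and 4730.3, 4047, 4634, 4595 and 4412 in SH. The 3 groups did not overlap, with control highest and SH lowest. Gnb2 fell in IH, with a log2 value of −0.20 ± 0.05 (adjusted p = 0.0273), and in SH (−0.34 ± 0.05, adjusted p = 0.00113), and the IH vs. SH difference was 0.14 ± 0.05 (adjusted p = 0.191). The SH call held under all 23 alternatives and the IH call under 15. It was lost without any 1 of control 1, control 2, control 4, IH 1, IH 2 and IH 4 (adjusted p 0.0523 to 0.0858). With GC content and length trends removed the values were −0.07 in IH (adjusted p = 0.294) and −0.16 in SH (adjusted p = 0.0224). Gnb2 also shares 7.1% of its exon bases with Epo on its own strand and 12.5% with Gigyf1 on the other, neither of which was analysed here. Gnb4 had log2 values of 0.00 ± 0.09 and −0.02 ± 0.09.

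The 3 alpha subunit genes belong to different classes, and 1 was called in each comparison with control, Gnas in IH and Gna11 in SH. Gnas, the Gs-type alpha subunit that stimulates adenylyl cyclase, is imprinted in some tissues and had the highest level per kilobase of all 45 members (GRCm39 chr2:174126022-174188537, plus strand). Its normalized count was 29101, 27653, 26087 and 25604 in the control libraries, 23678, 21819, 23984, 21998 and 20337 in IH and 29150, 25102, 26908, 23164 and 23101 in SH. Every IH library lay below every control library, and SH overlapped both groups. Gnas fell in IH (log2 fold change −0.28 ± 0.08, adjusted p = 0.0336), was −0.09 ± 0.08 in SH (adjusted p = 0.437), and the direct IH vs. SH difference was −0.19 ± 0.07 (adjusted p = 0.216), so an effect of IH beyond that of SH was not shown. Gna11, a Gq-type alpha subunit that activates phospholipase C beta (GRCm39 chr10:81364558-81381060, minus strand), was 3229, 3408, 3293 and 3219.8 in the control libraries, 2933, 2841, 3064, 2969.7 and 2878 in IH and 2957, 2565, 2889.5, 2969.9 and 2892 in SH. All control libraries lay above all IH and SH libraries. It fell in SH (−0.20 ± 0.05, adjusted p = 0.0132) and was −0.16 ± 0.05 in IH (adjusted p = 0.0526). The IH value was called with edgeR's own filter (adjusted p = 0.0496) and without IH 3, SH 1 or SH 2 (adjusted p = 0.0393, 0.0497 and 0.027). Gnai3, a Gi-type alpha subunit that inhibits adenylyl cyclase, was 0.11 ± 0.09 in IH and 0.25 ± 0.09 in SH (adjusted p = 0.0571 by edgeR and 0.046 by DESeq2). With GC content and length trends removed, Gnas in IH (−0.15, adjusted p = 0.19) and Gna11 in SH (−0.06, adjusted p = 0.507) were not called. The IH call of Gnas was also lost without any 1 of control 1, control 2, IH 2, IH 4 and IH 5 (adjusted p 0.0649 to 0.107).

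Of the 12 Rgs genes, none was called in IH vs. control by edgeR in the fit of all libraries or by DESeq2 (3 had an unadjusted p under 0.05), and 3 were called in SH vs. control (25.0%, against 20.6% of all genes), 2 lower and 1 higher, a share near the background. These 3 were Rgs17, Rgs19 and Rgs20, of the RZ subfamily, which act on Gi, Go and Gz alpha subunits. The subfamily was not tested as a group. Rgs19 (GRCm39 chr2:181330212-181335997, minus strand) was 471, 441, 438 and 426 in the control libraries, 470.2, 415, 568, 473 and 438 in IH and 368, 405, 330.5, 309.9 and 342 in SH. Every SH library lay below every control and every IH library, and IH overlapped control. It fell in SH (−0.34 ± 0.10, adjusted p = 0.026), was 0.09 ± 0.10 in IH (adjusted p = 0.568), and was called higher in IH than in SH (0.43 ± 0.09, adjusted p = 0.0274).

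Rgs20 (GRCm39 chr1:4979779-5140561, minus strand) was 335, 384, 369 and 314 in the control libraries, 355, 374, 312, 352 and 360.2 in IH and 204, 264, 229.7, 275 and 358 in SH. Of its SH libraries, 4 lay below all control and IH libraries and SH 5 lay within their range. It fell in SH (−0.40 ± 0.13, adjusted p = 0.0464) close to the threshold, with 0.00 ± 0.13 in IH. The IH vs. SH difference was 0.40 ± 0.13 (adjusted p = 0.125), and 0.53 without SH 5 (adjusted p = 0.0241). Rgs17 (GRCm39 chr10:5775663-5872407, minus strand) went the other way, at 1208, 1323, 1269 and 1102 in the control libraries, 1641, 1630.1, 1413, 1444 and 1393 in IH and 1298, 2085, 1858, 1484 and 1346 in SH. All IH libraries lay above control, whereas SH 1 lay within the control range. Rgs17 rose in SH (0.40 ± 0.12, adjusted p = 0.0352) and was 0.29 ± 0.12 in IH (adjusted p = 0.126, and 0.037 in the edgeR fit of control and IH alone). The SH calls of these 3 genes held under 16, 6 and 15 of 23 alternatives for Rgs19, Rgs20 and Rgs17, and the IH vs. SH call of Rgs19 under 15. Leaving out any 1 of control 1, control 2, SH 3, SH 4 and SH 5 (adjusted p 0.0512 to 0.0777) ended the SH call of Rgs19, and its IH vs. SH call was lost without any 1 of IH 1, IH 3, IH 4, SH 3, SH 4 and SH 5 (adjusted p 0.0518 to 0.0719). The Rgs17 call was lost without any 1 of control 1, control 2, control 3, control 4, SH 2 and SH 3 (adjusted p 0.0517 to 0.0907), and the Rgs20 call in 12 of the 14 such fits, those without control 1, control 2, control 3, control 4, IH 1, IH 2, IH 4, IH 5, SH 1, SH 2, SH 3 and SH 4 (adjusted p 0.0511 to 0.127). With GC content and length trends removed none of the 3 was called in SH, at −0.25 (adjusted p = 0.116), −0.45 (0.0557) and 0.13 (0.513).

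The other 9 Rgs genes were not called by edgeR as fitted above in any comparison, and DESeq2 called 1 of them, Rgs7bp in SH. Rgs7bp, which anchors RGS proteins of the R7 subfamily at the membrane and had the highest per-kilobase level of the 12 after Rgs4 in control, was 0.22 ± 0.08 in IH (adjusted p = 0.105) and 0.24 ± 0.08 in SH (adjusted p = 0.0595 by edgeR and 0.0373 by DESeq2). In SH it was also called by edgeR with scaling by library total (adjusted p = 0.0383) and without control 3, SH 1 or SH 3 (adjusted p = 0.0275, 0.0397 and 0.0441). Rgs9, an R7 member, was 0.22 ± 0.10 in IH and 0.06 ± 0.10 in SH. Rgs6, of the same subfamily, was 0.03 ± 0.22 and 0.05 ± 0.22. Rgs10, which acts on Gi alpha subunits and is abundant in microglia, was 0.10 ± 0.17 in IH, −0.26 ± 0.17 in SH and 0.35 ± 0.16 in IH vs. SH (adjusted p = 0.3). Rgs14, an RGS protein known from CA2 pyramidal neurons, was −0.19 ± 0.17 and −0.22 ± 0.17. The R4 subfamily genes Rgs2, Rgs4, Rgs5 and Rgs16 lay between −0.15 and 0.10 in both comparisons with control.

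None of the 7 adenylyl cyclase genes was called in any comparison by edgeR in the fit of all libraries or by DESeq2, and at an unadjusted p under 0.05 there was 1 in IH vs. control and 0 in the others. That 1 was Adcy5, a calcium-inhibited cyclase, at −0.25 ± 0.09 in IH (adjusted p = 0.0805, and 0.042 in the edgeR fit of control and IH alone) and −0.19 ± 0.09 in SH (adjusted p = 0.147). The calcium-stimulated cyclase Adcy1, the most abundant of them per kilobase and long tied to hippocampal memory, spread widely within groups. It was 20414, 25387, 30762 and 29757 in the control libraries, 22595, 32052, 25842, 30038 and 42353 in IH and 23963, 21518, 20136, 40663 and 41730 in SH. The high libraries were IH 5, SH 4 and SH 5, and its log2 values were 0.20 ± 0.23 in IH and 0.16 ± 0.23 in SH. Adcy8, also stimulated by calcium, was −0.17 ± 0.12 and −0.17 ± 0.12. Adcy3 was −0.08 ± 0.14 and −0.07 ± 0.14. Adcy4, Adcy6 and Adcy7 lay between −0.24 and 0.38 in IH and between −0.23 and 0.29 in SH, with adjusted p-values of at least 0.262.

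Phosphodiesterase genes were called in the higher direction only, 2 of 10 in IH vs. control (against 6.08% of all genes called higher) and 4 of 10 in SH vs. control (against 10.2%). None was called in IH vs. SH by edgeR or DESeq2, where 1 had an unadjusted p under 0.05. Of the 4 genes for enzymes specific to cyclic AMP (Pde4b, Pde7a, Pde7b and Pde8a), Pde7a and Pde7b were called in both groups, Pde4b in SH, and Pde8a in neither. Pde7a (GRCm39 chr3:19277270-19365890, minus strand) was 678, 688, 729.8 and 739.9 in the control libraries, 1001, 849.5, 854, 789.5 and 856 in IH and 809.8, 979, 934, 878 and 1039.6 in SH. Every exposed library lay above every control library. It rose in IH (0.30 ± 0.08, adjusted p = 0.0346) and in SH (0.39 ± 0.08, adjusted p = 0.00585). Its close relative Pde7b (GRCm39 chr10:20273567-20600886, minus strand) was 359, 322, 417 and 389.6 in the control libraries, 479.6, 465, 496, 542 and 543 in IH and 411, 534, 407, 512 and 540.3 in SH. All IH libraries lay above control, and 2 SH libraries lay within the control range. Pde7b rose in IH (0.44 ± 0.11, adjusted p = 0.0183) and in SH (0.37 ± 0.11, adjusted p = 0.0261).

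Pde10a, which hydrolyses both cyclic AMP and cyclic GMP and is best known from striatal neurons (GRCm39 chr17:8744204-9205482, plus strand), was 1989, 2075, 2233 and 1897 in the control libraries, 2045, 2306, 2179, 2322 and 2533 in IH and 2948, 2456, 2498, 2549 and 2694 in SH. Every SH library lay above every control library, and IH lay between with overlap. Pde10a rose in SH (0.36 ± 0.07, adjusted p = 0.00468) and was 0.15 ± 0.07 in IH (adjusted p = 0.176). Of 10 striatal markers 7 were in the table, none at 0, and they summed to 1384 to 2246 in control, 1518 to 1905 in IH and 1341 to 1820 in SH. None of the 6 tested was called in either comparison with control by edgeR or DESeq2, with 1 at an unadjusted p under 0.05 in IH and 0 in SH. Pde4b, the target of rolipram-type inhibitors (GRCm39 chr4:101944740-102465716, plus strand), was 1654, 1573, 1724 and 1539.7 in the control libraries, 1879.9, 1878, 1714, 1824 and 1822 in IH and 1999, 2077, 2078, 1819 and 1679 in SH. It rose in SH (0.25 ± 0.07, adjusted p = 0.0196), with SH 5 inside the control range, and was 0.17 ± 0.07 in IH (adjusted p = 0.116).

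Pde8a was 0.13 ± 0.18 in IH and 0.32 ± 0.18 in SH, and Pde9a, specific to cyclic GMP, was 0.08 ± 0.17 and 0.25 ± 0.17. The calmodulin-stimulated enzymes Pde1a and Pde1c were −0.15 ± 0.17 and 0.35 ± 0.16 in IH and 0.06 ± 0.17 and 0.15 ± 0.16 in SH. Pde11a, an enzyme enriched in ventral hippocampus, had the largest spread within groups of all members (SD 0.54 on the log2 scale, median of the 45 members 0.19), from 212 in IH 5 to 611 in SH 2. Pde6d is a chaperone for prenylated proteins despite its name and was −0.07 ± 0.08 and −0.13 ± 0.08. None of these 6 was called by edgeR or DESeq2. After removal of GC content and length trends no phosphodiesterase was called: Pde7a and Pde7b were 0.18 and 0.34 in IH, and Pde7a, Pde7b, Pde10a and Pde4b were 0.23, 0.22, 0.27 and 0.09 in SH. In IH, the Pde7a call was lost without any 1 of control 1, control 2, control 3, control 4, IH 1, IH 2 and IH 5 (adjusted p 0.0518 to 0.0992), and the Pde7b call without either of control 1 and control 2 (adjusted p 0.0554 to 0.0687). In SH, the Pde7b call was lost without any 1 of control 1, control 2, SH 2, SH 4 and SH 5 (adjusted p 0.0575 to 0.0884), and the Pde4b call without either of control 2 and control 4 (adjusted p 0.058 to 0.0587).

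**Figure D3:**
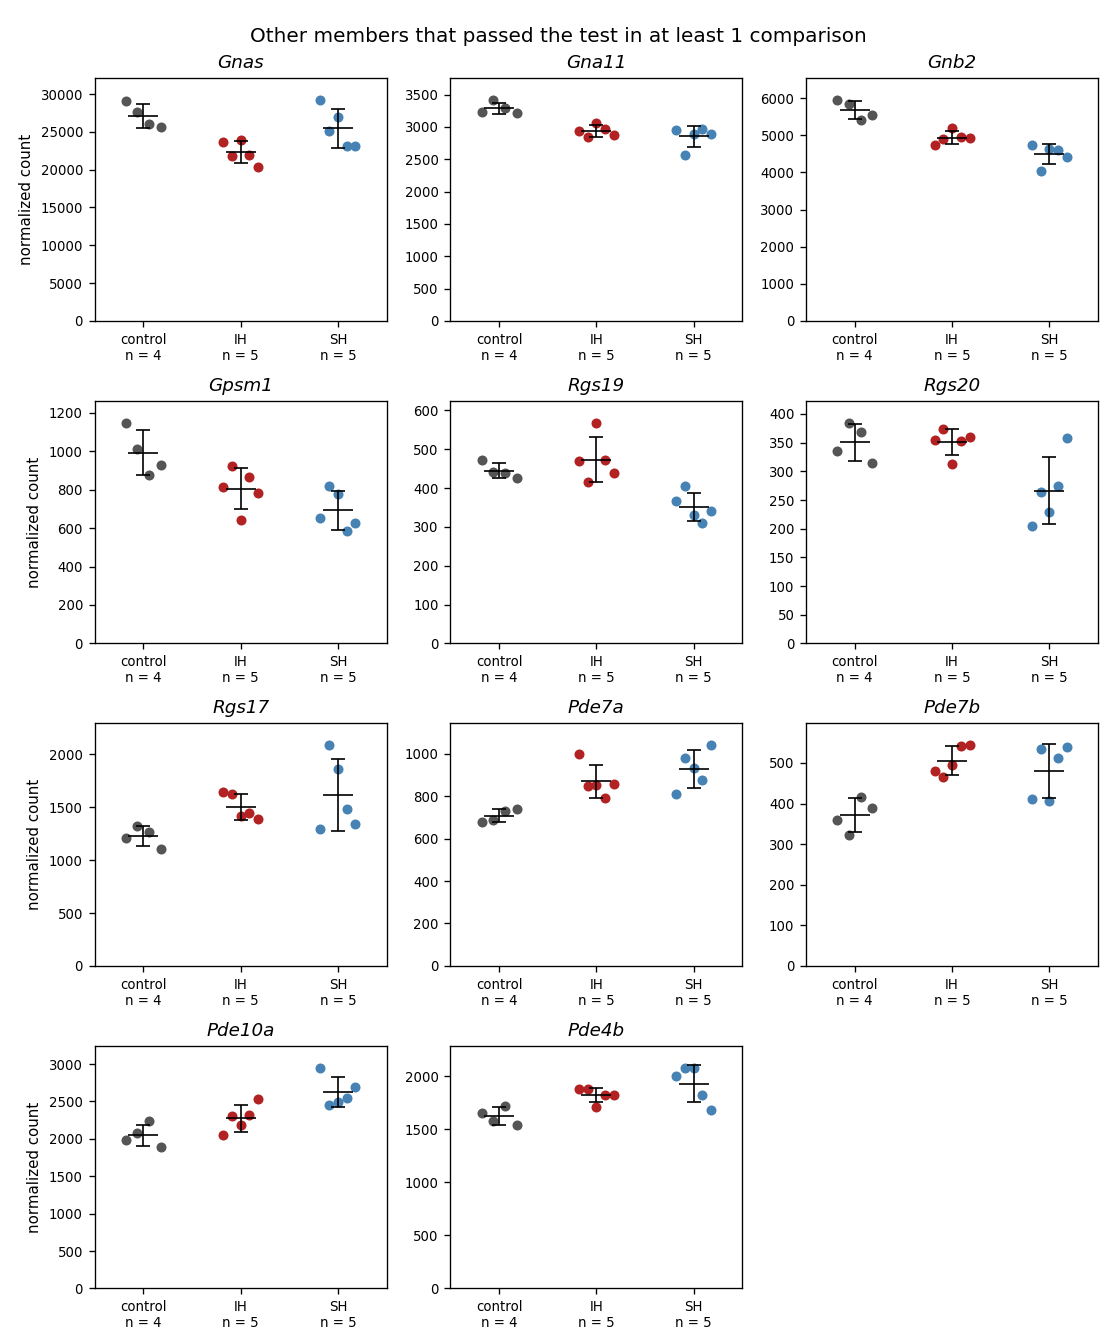
Normalized counts of the 11 members outside the gamma subunits that were called in at least 1 comparison, by library in control (n = 4), IH (n = 5) and SH (n = 5), on linear axes that start at 0. Dots are libraries, the horizontal mark is the group mean and the bar is ± SD. The groups of Gnb2 do not overlap in any comparison, and all exposed libraries of Pde7a lie above control.

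Gpsm1 encodes a modulator that binds Gi-type alpha subunits in the GDP state without a receptor (GRCm39 chr2:26205457-26238265, plus strand). Its normalized count was 1147, 1009, 878 and 930.4 in the control libraries, 814, 925, 642, 865 and 779.9 in IH and 651, 821, 776, 587 and 625 in SH. All SH libraries lay below all control libraries, and IH overlapped both. Gpsm1 fell in SH (−0.52 ± 0.12, adjusted p = 0.00808) and was −0.30 ± 0.12 in IH (adjusted p = 0.108). With GC content and length trends removed the SH value was −0.29 (adjusted p = 0.16). Gpsm1 shares 2.6% of its exon bases with Dnlz on the other strand, which was itself lower in SH (−0.38, adjusted p = 0.00471). In the fits of all libraries none of the 4 receptor kinase genes was called by edgeR or DESeq2 in any comparison, with 1 at an unadjusted p under 0.05 in each. Grk6 was −0.18 ± 0.06 in IH (adjusted p = 0.0804, and 0.0495 without IH 2) and −0.17 ± 0.06 in SH (adjusted p = 0.0665), and Grk4 was −0.38 ± 0.15 in IH vs. SH (adjusted p = 0.228). Grk3 and Grk5 had adjusted p-values of at least 0.35.

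Downstream genes of the same pathways, listed separately and holding no member, were in the table for 15 of 36: subunits of protein kinase A, cyclic AMP-responsive factors, phospholipase C beta, IP3 receptors, protein kinase C, potassium channels opened by beta-gamma, and alpha subunit chaperones. Of the 15, 1 was called lower and 3 higher in IH vs. control, and the counts were the same in SH vs. control. The 4 called genes make 26.7% of the list in each comparison, against 10.9% of all genes in IH and 20.6% in SH. In IH vs. control 2 were called without any 1 of control 1, control 2, IH 1, IH 2, IH 3, IH 5 and SH 4. The lower gene was Prkaca, a catalytic subunit of protein kinase A, at −0.24 ± 0.05 in IH (adjusted p = 0.00731) and −0.20 ± 0.05 in SH (adjusted p = 0.0129). Among the higher genes, Creb1, the transcription factor that protein kinase A activates, was 0.35 ± 0.07 in IH (adjusted p = 0.00857) and 0.39 ± 0.07 in SH (adjusted p = 0.0031). Crem, a relative whose short forms repress the same sites, was 0.40 ± 0.12 (adjusted p = 0.0463) and 0.50 ± 0.12 (adjusted p = 0.00976). Ric8b, a chaperone of Gs-type alpha, was 0.21 ± 0.06 (adjusted p = 0.0404) and 0.26 ± 0.06 (adjusted p = 0.0106). None of the 15 was called in IH vs. SH by edgeR or DESeq2, or had an unadjusted p under 0.05 there. With GC content and length trends removed, 1 of the 15 was called in each comparison with control, Prkaca (lower) in IH and Creb1 (higher) in SH.

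The comparisons with control held fewer calls once trends over gene GC content and transcript length were removed. When each library's trends over both were fitted and taken out, 0 of the 45 members were called in IH vs. control by edgeR, against 5, and 4 in SH vs. control, against 13. The 4 were Gng13, Gng5, Gng7 and Gnb2, all lower. In IH vs. SH the calls of Gng13 and Rgs19 were kept. Gng13 in SH moved from −1.66 to −1.41, and Gng5 from −0.49 to −0.65. The members' median transcript GC content was 51.4%, against 50.9% for all matched genes, and their median length was 3912 bases, against 3381.

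**Figure D4:**
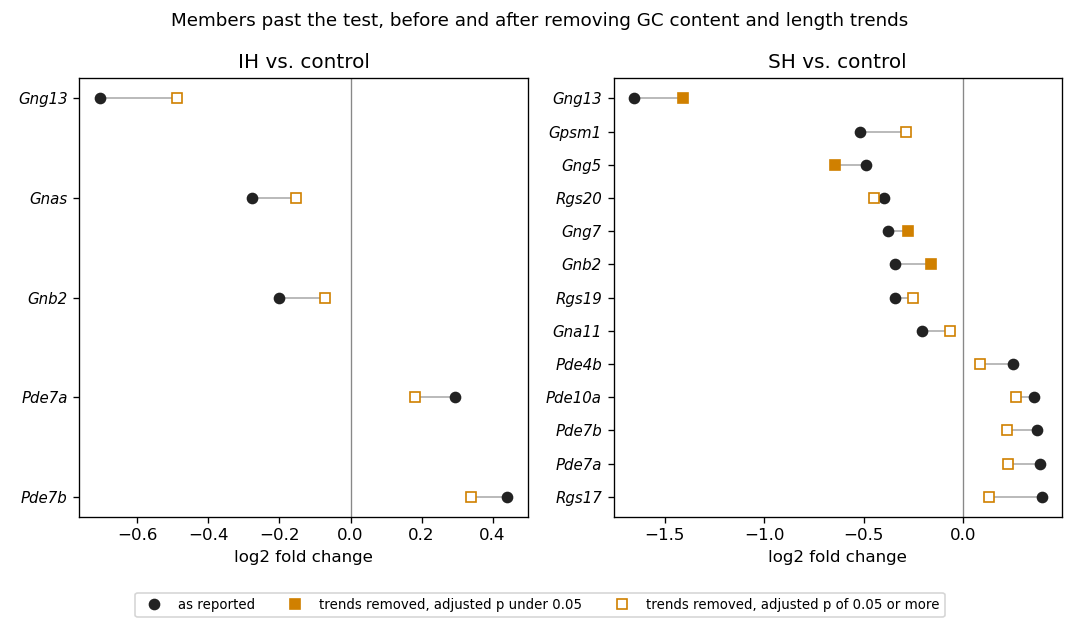
Log2 fold changes of the members called in IH vs. control (5 genes) and SH vs. control (13 genes), as reported (circles) and with the trends over GC content and length taken out (squares, filled where the adjusted p was still under 0.05). The filled squares are Gng13, Gng5, Gng7 and Gnb2 in SH, and the 2 horizontal scales differ.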

How the data were processed

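Hippocampal poly(A) RNA of 14 mice was sequenced from strand-keeping libraries. The authors trimmed reads with fastp 0.23.4, aligned them to GRCm39 with HISAT2 2.2.1 and quantified genes with StringTie 2.2.1 (the submitters' processing notes). The deposited values are estimated counts per gene, without normalization, for 7756 genes that the authors describe as protein-coding, above a limit of 40 counts in each group and different in signal from control, although 418 of them had a mean under 40 in at least 1 group. That selection used the same groups, so the shares of called genes and the adjusted p-values hold only within it. Genes with little difference from control were left out before adjustment, so adjusted p-values against control can be too small. Non-whole values, found in 10 genes, were rounded. The members and gene lists were chosen with earlier results of these data known. Named genes were every Gng gene, every member called in a comparison, and the members with the smallest unadjusted p up to 12 per comparison.

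The test was edgeR 4.0.16 (quasi-likelihood, TMM, R 4.3.3) over 7338 genes. It was also run on counts simulated with the dispersions of these data. That simulation held no difference between experiments and no GC content or length trend, and its outcome is not given here. Alternatives were DESeq2 1.42.0, other scalings and filters, GC content and length trends removed per library by loess, a choroid plexus covariate, the 2 groups alone, a replicate block and leaving out each library. Transcript length and GC content were matched for 7723 genes. Samples have no stated source other than the mouse. The p-values weigh a group difference against the spread between samples within groups. That spread does not include a difference between the preliminary and the main experiment. No 2 libraries of the same group agreed within sampling noise (lowest chi-square per degree of freedom 8.96 over 26 pairs). Columns of all 14 samples were used.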

Additional observations from a re-analysis of the deposited data

Results flagged for a closer look

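Of 69 groups of libraries (23 named genes in control, IH and SH), 5 held 1 library far from the others by Dixon's 95% limit, while chance flags about 1 in 20 groups. Gng12 was 713 normalized counts in SH 4, against 1470 to 1748 in the other SH libraries. Gng4 was 755 in control 1, against 473 to 519. Gng7 was 3849 in IH 1, against 4216 to 4313. Gna11 was 2565 in SH 2, against 2890 to 2970. Grk6 was 1646 in IH 2, against 1419 to 1465. Without IH 2, Grk6 was called in IH vs. control (adjusted p = 0.0495 by edgeR). Without SH 2, Gna11 was still called in SH vs. control (adjusted p = 0.0255 by edgeR) and was called in IH vs. control (adjusted p = 0.027).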

How the results depend on the processing

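Under 23 alternatives, 5 of the 20 calls of a named member kept their call throughout (Gng13 in IH vs. SH, and Gng13, Gng5, Gng7 and Gnb2 in SH vs. control), and none of the 20 changed direction. Of 49 uncalled values, 13 changed direction and 8 passed the threshold under some alternative. With GC content and length trends removed, 0, 4 and 2 members were called in IH vs. control, SH vs. control and IH vs. SH, against 5, 13 and 2, and 442, 459 and 230 of all genes, against 802, 1514 and 174. Gng13 in IH vs. control was then −0.49 (adjusted p = 0.108, range over the alternatives 0.00154 to 0.108). The fit of the 2 groups alone called 7 members in IH vs. control (Adcy5 and Rgs17 gained). It called 1 member in IH vs. SH, and 64 of all genes, while DESeq2 called 275 there. Leaving out 1 library gave 0 (without control 2) to 7 members in IH vs. control, 8 (without control 2) to 13 in SH vs. control and 1 to 3 in IH vs. SH, and 386 to 979, 906 to 1743 and 88 to 178 of all genes. Gng13 then ranged from −0.77 to −0.60, −1.75 to −1.54 and 0.84 to 1.05 in the 3 comparisons. Of the 15 downstream genes, 2 were called in IH vs. control with edgeR's own filter or the 2 groups alone, and 1 with trends removed, as in SH vs. control, while leaving out 1 library gave 2 to 4 in IH vs. control (2 in 7 of the 14 fits) and 4 to 5 in SH vs. control.

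Same-numbered libraries correlated between −0.296 and 0.466 in their deviations over 13 pairs, 6 of them above 0.1, so the numbers were not taken to pair the mice. The replicate block called 3, 12 and 1 members, and 738, 1443 and 148 of all genes. Under it Gng13 was −0.65, −1.60 and 0.95, called in all 3.

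Uncalled values changed direction as follows. With trends removed, Gng12 was −0.017 in IH and −0.17 in SH, Rgs20 −0.025 in IH, Gnas 0.079 in SH, Grk6 0.035 in SH and Rgs7bp 0.0089 in IH vs. SH. With the replicate block, Rgs20 was −0.061 and Rgs10 −0.0064 in IH, and Gng12 −0.033 in SH. With the choroid plexus covariate, Gng4 was 0.0071 in IH and Gng12 −0.027 in SH, and with edgeR's own filter Rgs20 was −0.0078 in IH. Leaving out 1 library gave −0.11 to 0.16 for Gng4, −0.047 to 0.047 for Rgs20 and −0.011 to 0.22 for Rgs10 in IH, −0.069 to 0.19 for Gng12 and −0.0071 to 0.25 for Gng4 in SH, and −0.041 to 0.21 for Gng12, −0.022 to 0.11 for Gng3, −0.044 to 0.017 for Grk6, −0.057 to 0.025 for Rgs7bp and −0.17 to 0.0085 for Rgs17 in IH vs. SH. The cause of these changes was not tested.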

Other observations

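Some members varied between libraries of the same group. IH 5, SH 4 and SH 5 held the highest counts of Adcy1 (42353, 40663 and 41730 normalized counts) and the 3 lowest counts of Pde1a (3051, 4555 and 3921), Grk3 (2631, 3045 and 2634) and Pde11a (212, 265 and 213). In the same libraries the summed oligodendrocyte markers, 6 of 7 in the table and none at 0, were 183071, 133655 and 138840, against 70168 to 116000 in the other 11 libraries. Thalamic markers, 9 of 10 in the table, summed to 5907 in IH 5, 5424 in SH 5 and 3064 in SH 4, against 2602 to 4063 in the other 11 libraries. The part of these markers in the spread of the 4 genes was not tested.

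Within groups, 16 of the 45 members had an SD under 0.15 on the log2 scale and 7 had one above 0.3, with a median of 0.19 against 0.18 for all tested genes. The 7 were Pde11a, Adcy4, Adcy1, Rgs6, Gng12, Pde1a and Rgs14, none of which was called in a comparison by edgeR or DESeq2.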
